A study of Homo sapiens with 18 samples.

Results

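The genes described here are 9 transcription factors of the luminal mammary and epithelial lineage, named one by one: FOXA1, GATA3, SPDEF, TFAP2A, TFAP2B, TFAP2C, ELF3, GRHL2 and TBX3. They were listed by name, with earlier results of these data known, and they are 9 of the 58884 gene identifiers in the count files. All 9 had more than 10 counts in total in each of the 3 fits used, so none was lost to the filter on low counts, although TFAP2B passed it with at most 7 counts in any library.

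Transcripts were sequenced from T47D, a human luminal breast cancer line that expresses the estrogen receptor, kept for 48 hours in DMSO, niraparib or olaparib. Niraparib and olaparib are inhibitors of the DNA damage enzymes PARP1 and PARP2, and both were given at 10 μmol/L. The paper reports that olaparib bound both enzymes alike, while niraparib favoured PARP1 and, unlike olaparib, also bound lanosterol synthase. The cells were labelled either WT (T47D AAV) or PARP1 KO (T47D JL), which gave 6 groups of 3 libraries: WT with DMSO, WT with niraparib, WT with olaparib, and the same treatments in PARP1 KO cells. Each WT group and each PARP1 KO group therefore shares its own DMSO control, and the labels do not say whether the KO cells are 1 clone or how the knockout was made. The study's methods describe separate dishes for each condition, but nothing ties a library to a dish, so the p-values measure the spread between libraries, which may be technical.

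Luminal cells line the milk ducts, and their identity is held by a small set of transcription factors that act together on chromatin. FOXA1 is a pioneer factor that opens sites for the estrogen receptor, GATA3 specifies and maintains the luminal fate, and the AP-2 factors bind many of the same enhancers. ELF3, SPDEF, GRHL2 and TBX3 belong to other DNA-binding families and act in epithelial differentiation, in the epithelial barrier and in mammary gland formation.

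The libraries held between 28890837 and 52251288 counts, and the 9 factors together took between 0.172% and 0.231% of the counts of a library. Levels are given as CPM (counts relative to the library total) scaled with the trimmed mean of M values (TMM), and every fold change is a log2 value with its standard error (SE). A gene was called when its adjusted P value over all genes tested was below 0.05 (edgeR quasi-likelihood test, Benjamini-Hochberg adjustment) and it changed by more than 1.5-fold. PARP1, the targeted gene, had 24.8 ± 1.34 CPM by total counts in the libraries labelled KO and 341 ± 17.9 in those labelled WT (SD, n = 9 each), with no overlap (exact permutation test, two-sided, p = 4.1e-05, the smallest possible). PARP1 transcripts in the KO libraries were thus at 7.27% of the WT level. The luminal keratins KRT8 (2403 to 4424 CPM over the 18 libraries), KRT18 (1627 to 2370) and KRT19 (2881 to 4157) were high in every library, whereas the basal keratin KRT5 was at 0 in 14 of 18 libraries and did not exceed 0.0997 CPM, so the label of a luminal line fits its markers. Over all genes, WT DMSO replicate 1 and WT niraparib replicate 2 stood apart from the others of their groups, with a chi-square per gene of 15.9 to 17.3 and 11.2 to 15.3 against them, while the remaining pairs of those groups had 3.14 and 3.24. Among the KO libraries niraparib replicate 3 stood apart likewise (10.7 and 13.4 against 3.0), and olaparib replicates 1 and 3 differed most (16.6). Leukocyte and endothelial markers (PTPRC and PECAM1) summed to at most 0.196 CPM in any library.

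Promoter sequence is shown for the 4 factors that were lower with niraparib in WT cells, because their mRNAs moved together. The RefSeq table (GRCh38.p14) held windows around transcription starts for 6 of the 9 factors (GATA3, FOXA1, SPDEF, TFAP2A, TFAP2B and ELF3), of which 6 windows are of GATA3. Only the bases before the start are printed, without any base that GENCODE annotates as untranslated region, 5′ to 3′ on the strand of the gene, in lower case. The GATA3, FOXA1 and TFAP2A stretches lie before a RefSeq start but inside the longer Ensembl gene given below for each. Capitals mark matches to GCCNNNGGC, the core motif of the AP-2 family, on either strand.
GATA3 before its start at 8054688, 1 of its 6 windows (chr10:8054438-8054687, plus strand): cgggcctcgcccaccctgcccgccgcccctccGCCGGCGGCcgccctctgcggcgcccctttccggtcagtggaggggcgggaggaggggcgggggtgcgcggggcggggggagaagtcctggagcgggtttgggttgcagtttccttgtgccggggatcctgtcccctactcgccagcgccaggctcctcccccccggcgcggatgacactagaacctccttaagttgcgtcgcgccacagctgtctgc
GATA3 upstream start, shared with GATA3-AS1 (chr10:8053391-8053603, plus strand): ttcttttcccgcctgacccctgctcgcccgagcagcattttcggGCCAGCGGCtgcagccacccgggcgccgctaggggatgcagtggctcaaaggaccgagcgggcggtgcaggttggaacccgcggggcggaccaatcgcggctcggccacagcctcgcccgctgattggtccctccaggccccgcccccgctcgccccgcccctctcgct
FOXA1 (chr14:37595250-37595499, minus strand): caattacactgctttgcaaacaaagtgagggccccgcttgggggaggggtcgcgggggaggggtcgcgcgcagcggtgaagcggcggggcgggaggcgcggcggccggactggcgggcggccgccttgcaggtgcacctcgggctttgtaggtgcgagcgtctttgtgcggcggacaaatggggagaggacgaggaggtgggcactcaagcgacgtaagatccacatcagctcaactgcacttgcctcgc
SPDEF (chr6:34556334-34556579, minus strand): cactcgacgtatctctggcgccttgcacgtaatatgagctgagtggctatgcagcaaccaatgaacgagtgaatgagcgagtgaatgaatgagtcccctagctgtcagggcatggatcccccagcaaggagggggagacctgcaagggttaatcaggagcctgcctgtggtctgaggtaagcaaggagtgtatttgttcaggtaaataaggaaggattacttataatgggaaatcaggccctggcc
TFAP2A, 1 of its 2 windows (chr6:10412392-10412641, minus strand): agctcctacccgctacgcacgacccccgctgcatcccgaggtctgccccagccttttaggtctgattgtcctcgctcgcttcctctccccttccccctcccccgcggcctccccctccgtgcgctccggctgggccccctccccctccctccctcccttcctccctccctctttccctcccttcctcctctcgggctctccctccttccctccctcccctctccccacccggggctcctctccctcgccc
Both GATA3 stretches shown hold 1 AP-2 match, as does 1 of the 4 GATA3 windows not shown, so that 3 of 6 hold a match and 3 hold none. The FOXA1, SPDEF and TFAP2A windows hold none. Of all 35116 windows of 300 bases in the table, 23.2% hold such a match. The other motifs searched on both strands were AGATAA for GATA factors (10.3% of all windows), TGTTTAC for forkhead factors (3.42%), AACCGGTT for grainyhead factors (0.134%), CAGGAAGT for ETS factors (3.08%) and AGGTGTGA for T-box factors (0.98%), and none of them was found in any window of the 6 factors. The printed stretches were rich in G and C, from 51.2% in SPDEF to 73.6% before the GATA3 start at 8054688.

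Per kilobase of exon GATA3 was by far the most abundant factor in all 6 groups. With DMSO in WT cells its level was 326 ± 15.1 RPKM (SD, n = 3). SPDEF (90.8 ± 5.20 RPKM) and FOXA1 (84.6 ± 0.883) came next, apart by little more than the spread between libraries, then GRHL2 (38.9 ± 0.708), TFAP2C (35.0 ± 1.04), TFAP2A (19.99 ± 1.19), ELF3 (6.51 ± 1.12) and TBX3 (3.02 ± 0.0757). TFAP2B was at the bottom of the order in every group. The order in PARP1 KO cells with DMSO was the same, and the neighbours SPDEF (92.5 ± 1.55) and FOXA1 (90.8 ± 3.44) again lay within their spread. Under niraparib in WT cells the order from SPDEF to TFAP2C was different, with FOXA1 (66.8 ± 5.25) ahead of SPDEF (62.7 ± 7.61) within the spread and TFAP2C (42.7 ± 0.982) ahead of GRHL2 (40.9 ± 0.529). With olaparib in WT cells TFAP2C (36.7 ± 1.25) was ahead of GRHL2 (35.0 ± 0.585) as well.

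**Figure D1:**
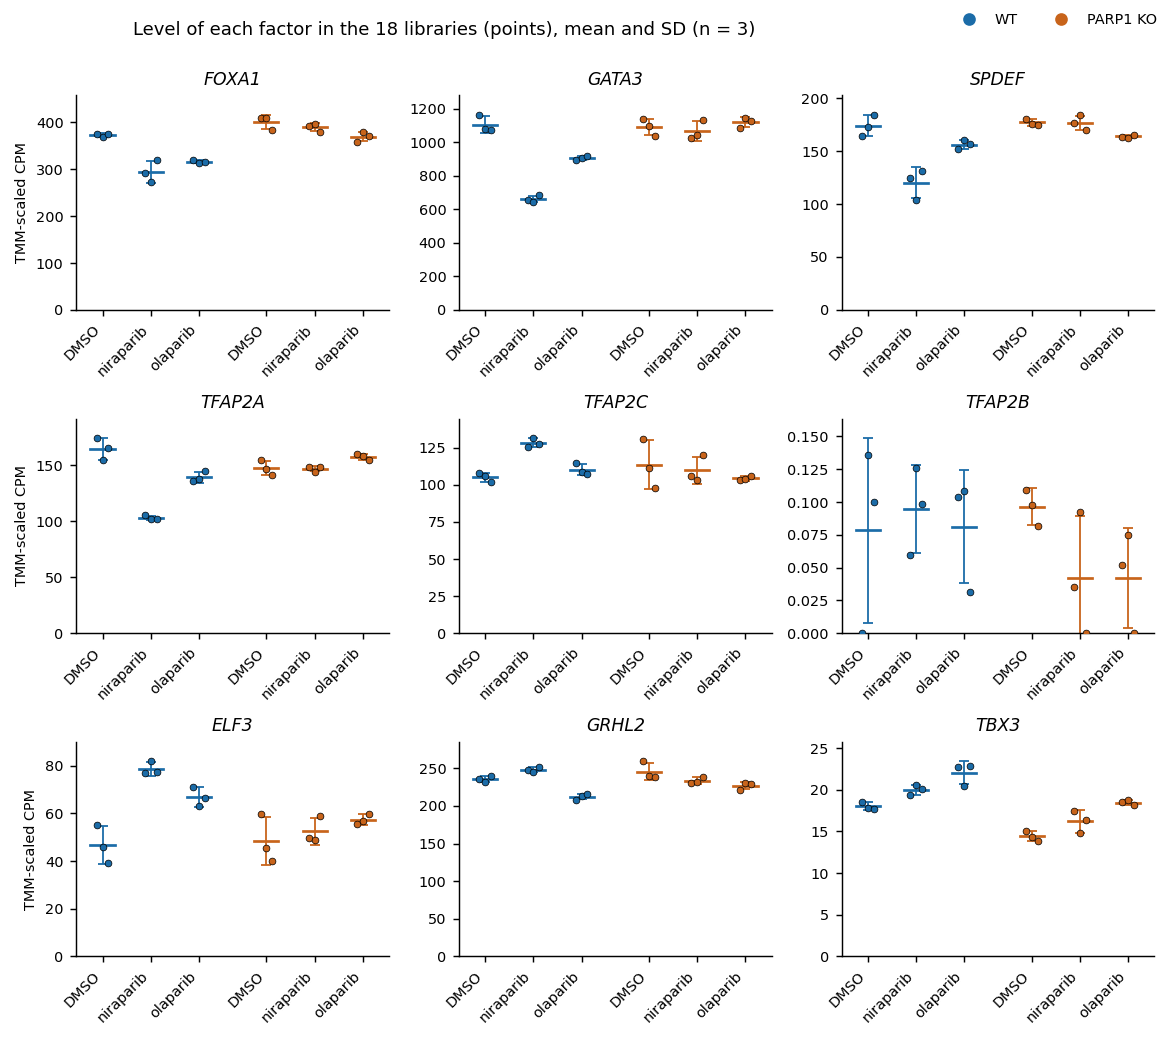
Each panel plots 1 factor, with TMM-scaled CPM on the y axis from 0 and the 6 groups on the x axis; points are libraries, bars the mean and whiskers the SD of 3 libraries. In WT cells (blue) the niraparib libraries of GATA3 sit between 643 and 683, all below the DMSO libraries (1072 to 1164), whereas the PARP1 KO libraries (orange) lie between 1027 and 1144 under all treatments.

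Niraparib lowered GATA3 and TFAP2A and raised ELF3 in WT cells, and these 3 of the 9 factors were called. In the same comparison 13.8% of all 22446 genes tested were called. By adjusted P value alone 6 of the 9 passed (FOXA1 and SPDEF also lower, TFAP2C also higher), against 38% of all genes. Of all calls 1819 were higher and 1283 lower, and 2309 and 932 when libraries were scaled by total counts alone. The median of the 9 fitted changes, TFAP2B included, was 0.07, beside -0.02 for all genes tested, with factors moving in both directions. In RNA from whole cultures, fewer cells of a type and less RNA per cell cannot be told apart.

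GATA3 (ENSG00000107485, chromosome 10 from 8045378 to 8075198 of GRCh38, plus strand) had 1164, 1079 and 1072 CPM in the 3 WT DMSO libraries and 659, 643 and 683 with niraparib. Every niraparib library was far below every DMSO library. The change was -0.74 on the log2 scale (SE 0.05, adjusted P = 6.0e-11, edgeR), a fall by 1.67-fold. TFAP2A (ENSG00000137203, chromosome 6 from 10393186 to 10419659, minus strand), an AP-2 factor of surface ectoderm and luminal cells, had 174, 154 and 165 CPM with DMSO and 105, 102 and 102 with niraparib. Its niraparib libraries were tightly grouped and did not overlap the control. The change was -0.67 (SE 0.05, adjusted P = 4.7e-10, edgeR). When libraries were scaled by total counts alone, TFAP2A stood at -0.58, just short of 1.5-fold, so that 2 factors were called.

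SPDEF (ENSG00000124664, chromosome 6 from 34537802 to 34556333, minus strand), an ETS factor of secretory epithelium, had 164, 173 and 184 CPM with DMSO and 125, 104 and 131 with niraparib. The groups did not overlap, and the niraparib libraries spread more widely than the controls. Its change of -0.54 (SE 0.07, adjusted P = 2.5e-05, edgeR) was smaller than 1.5-fold, and it passed 1.5-fold (-0.60, 4 factors called) without niraparib replicate 3. The lowest value, 104, is of niraparib replicate 2, without which the change was -0.44 and still passed by adjusted P value (edgeR). FOXA1 (ENSG00000129514, chromosome 14 from 37589552 to 37596059, minus strand) had 376, 369 and 375 CPM with DMSO and 292, 273 and 319 with niraparib. All 3 niraparib libraries were lower, with the smallest log2 change of the 4 factors that were lower. The change was -0.34 (SE 0.05, adjusted P = 9.8e-06, edgeR).

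ELF3 (ENSG00000163435, chromosome 1 from 202007945 to 202017183, plus strand), an epithelium-specific ETS factor induced in stressed and differentiating epithelia, had 55.3, 45.8 and 39.4 CPM with DMSO and 76.7, 81.8 and 77.3 with niraparib. The DMSO libraries were scattered, yet the highest of them lay well below the lowest with niraparib. ELF3 rose by 0.75 (SE 0.10, adjusted P = 1.3e-04, edgeR), or 1.68-fold. The highest control is WT DMSO replicate 1, without which the change was 0.88. Of its exon bases 9.24% are shared with another gene on the same strand (ENSG00000249007), where featureCounts by default assigns no read, and the other factors share none. TFAP2C (ENSG00000087510, chromosome 20 from 56629306 to 56639283, plus strand), the AP-2 factor most tied to the estrogen receptor, had 108, 106 and 102 CPM with DMSO and 126, 131 and 128 with niraparib. It moved opposite to its relative TFAP2A, with no overlap between groups. The change was 0.29 (SE 0.05, adjusted P = 3.1e-05, edgeR), below 1.5-fold.

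GRHL2 (ENSG00000083307, chromosome 8, plus strand), a grainyhead factor that maintains epithelial junctions, had 236, 231 and 240 CPM with DMSO and 248, 245 and 251 with niraparib. The niraparib libraries were all slightly higher. The change was 0.07 (95% interval -0.01 to 0.16) and did not pass (adjusted P = 0.21, edgeR). TBX3 (ENSG00000135111, chromosome 12 from 114670255 to 114684175, minus strand), a T-box repressor needed for mammary gland formation, had 18.5, 17.8 and 17.7 CPM with DMSO and 19.4, 20.5 and 20.04 with niraparib. Its change of 0.15 (95% interval 0.01 to 0.29) missed the threshold after adjustment (adjusted P = 0.10, edgeR). Scaled by total counts alone, both passed, GRHL2 at 0.17 and TBX3 at 0.25 (adjusted P = 0.0014 and 0.0081, edgeR), below 1.5-fold.

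TFAP2B (ENSG00000008196, chromosome 6 from 50818723 to 50847619, plus strand), the AP-2 factor of neural crest and kidney that is also found in some luminal tumors, was barely detected. Its counts were 0, 7 and 4 with DMSO, 2, 7 and 4 with niraparib and 4, 4 and 1 with olaparib in WT cells. In PARP1 KO cells they were 4, 3 and 3 with DMSO, 1, 3 and 0 with niraparib and 2, 3 and 0 with olaparib. No difference was detectable at this depth, and no fold change is given.

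Olaparib moved 6 of the 9 factors in WT cells past an adjusted P value of 0.05 (19% of all genes), but none by more than 1.5-fold with edgeR or DESeq2 (4.04% of all genes were called, and 6 factors had an unadjusted P value below 0.05). GATA3 had 894, 907 and 917 CPM, below every DMSO library, and its change was -0.28 (SE 0.05, adjusted P = 2.0e-04, edgeR). TFAP2A had 136, 137 and 145 CPM, also below the control, with a change of -0.23 (SE 0.05, adjusted P = 0.0017). FOXA1 had 319, 313 and 316 CPM and a change of -0.24 (SE 0.05, adjusted P = 0.0018). These 3 factors were lower with olaparib as they were with niraparib.

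ELF3 had 71.1, 62.9 and 66.4 CPM with olaparib, above all DMSO libraries, at 0.52 (SE 0.10, adjusted P = 0.0047, edgeR). Leaving out WT DMSO replicate 1, the highest of the DMSO libraries, brought ELF3 past 1.5-fold, so that 1 factor was called. TBX3 had 22.8, 20.5 and 22.9 CPM with olaparib and a change of 0.29 (SE 0.07, adjusted P = 0.0049). GRHL2 had 208, 213 and 215 CPM, all below DMSO, at -0.15 (SE 0.04, adjusted P = 0.017), and it no longer passed without olaparib replicate 1 or 2 or without DMSO replicate 3 (adjusted P = 0.074, 0.051 and 0.071, edgeR). SPDEF, at 152, 160 and 157 CPM (-0.15, SE 0.07, unadjusted P = 0.054, adjusted P = 0.17, edgeR), and TFAP2C, at 115, 109 and 107 CPM (0.07, 95% interval -0.02 to 0.17, adjusted P = 0.31), did not pass. Both comparisons use the same DMSO libraries, so the changes with niraparib and with olaparib are not independent of each other.

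**Figure D2:**
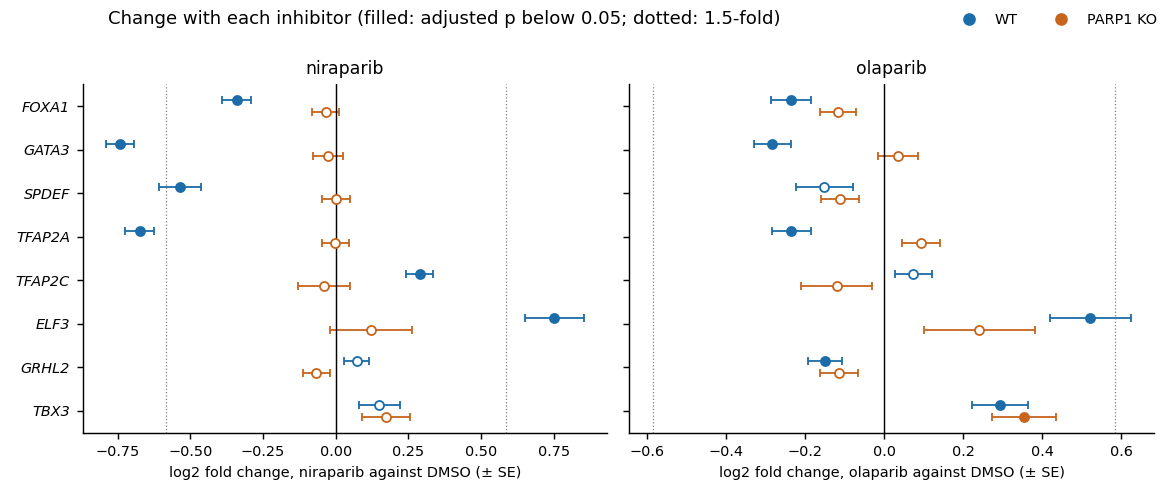
The x axis is the log2 fold change against DMSO of the same genotype with its SE, for niraparib (left) and olaparib (right), and each row is 1 factor in WT (blue) and PARP1 KO cells (orange); TFAP2B is left out. Filled points have an adjusted P value below 0.05, dotted lines mark 1.5-fold, and only TBX3 with olaparib is filled among the PARP1 KO points.

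The inhibitors were compared directly at the same dose and time. In WT cells 5 of the 9 factors differed between niraparib and olaparib at an adjusted P value below 0.05 (32.2% of all genes) and none by more than 1.5-fold with edgeR or DESeq2 (8.95% of all genes were called, and 7 factors had an unadjusted P value below 0.05). With niraparib GATA3 was lower than with olaparib by a log2 difference of -0.46 (SE 0.05, adjusted P = 1.6e-07, edgeR). TFAP2A (-0.44, SE 0.05, adjusted P = 4.9e-07) and SPDEF (-0.39, SE 0.07, adjusted P = 7.1e-04) were lower too. In the other direction, niraparib left TFAP2C higher by 0.21 (SE 0.05, adjusted P = 9.8e-04, edgeR) and GRHL2 by 0.22 (SE 0.04, adjusted P = 3.1e-04). For FOXA1 (-0.11, 95% interval -0.20 to -0.01, adjusted P = 0.13), ELF3 (0.23, 95% interval 0.03 to 0.43, adjusted P = 0.11) and TBX3 (-0.14, SE 0.07, unadjusted P = 0.053, adjusted P = 0.13, edgeR) a difference was not shown. The ELF3 difference passed in 6 of 17 alternative fits and FOXA1 in 1.

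In PARP1 KO cells no change of the 9 factors was detected with niraparib: 0 were called and 0 passed on the adjusted P value alone, with 1 (TBX3) at an unadjusted P value below 0.05 (edgeR), and DESeq2 called 0 as well. Among all 22037 genes tested 0.0136% were called and 0.109% passed by adjusted P value, so that 0 of 9 is the background share. GATA3 had 1138, 1100 and 1039 CPM with DMSO and 1027, 1042 and 1134 with niraparib. The groups overlapped fully, and the change was -0.03 (95% interval -0.13 to 0.07, adjusted P = 0.92, edgeR). TFAP2A had 154, 147 and 141 CPM with DMSO and 148, 144 and 148 with niraparib, and its change was 0.00 within rounding (-0.001, 95% interval -0.09 to 0.09). ELF3 had 59.7, 45.7 and 40.2 CPM with DMSO and 49.8, 48.7 and 59.1 with niraparib. Its interval, -0.16 to 0.40 around 0.12, was the widest of the 8 factors measured well, and the DMSO libraries were again the most scattered.

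The remaining factors overlapped between DMSO and niraparib in PARP1 KO cells. FOXA1 lay between 380 and 410 CPM in these 6 libraries (-0.04, 95% interval -0.13 to 0.06), SPDEF between 170 and 184 (0.00, 95% interval -0.09 to 0.09) and GRHL2 between 230 and 259 (-0.07, 95% interval -0.16 to 0.03). TFAP2C ranged from 98.2 to 131 CPM with DMSO alone, and its change was -0.04 (95% interval -0.22 to 0.14). TBX3 was at 0.17 (95% interval 0.01 to 0.33, adjusted P = 0.54, edgeR), beside 0.15 in WT cells.

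Olaparib in PARP1 KO cells also gave 0 called factors with edgeR and DESeq2 (0.803% of all genes, with 4 factors at an unadjusted P value below 0.05), and TBX3 alone passed by adjusted P value (8.29% of all genes). TBX3 had 15.1, 14.4 and 13.9 CPM with DMSO and 18.5, 18.7 and 18.2 with olaparib, with a gap between the groups. The change was 0.35 (SE 0.08, adjusted P = 0.0085, edgeR), and it was at adjusted P = 0.051 without KO olaparib replicate 2. FOXA1 (359, 379 and 371 CPM, -0.12, adjusted P = 0.13), SPDEF (163, 163 and 166 CPM, -0.11, adjusted P = 0.16) and GRHL2 (221, 230 and 229 CPM, -0.12, adjusted P = 0.15) were lower without passing. TFAP2A (160, 158 and 155 CPM, 0.09, adjusted P = 0.27) and GATA3 (1086, 1144 and 1129 CPM, 0.04, adjusted P = 0.77, edgeR) were higher without passing. Between niraparib and olaparib in PARP1 KO cells 0 factors were called and 0 passed by adjusted P value with edgeR, with 2 (SPDEF and TBX3) at an unadjusted P value below 0.05 and 0 called by DESeq2. All genes gave 1.07% and 10% in the same order.

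Without drug, PARP1 KO and WT cells differed little in these factors. None was called by edgeR or DESeq2 (0.146% of all 24675 genes were, and 3 factors had an unadjusted P value below 0.05), and only TBX3 passed by adjusted P value (1.39% of all genes). TBX3 was lower in PARP1 KO cells, at 15.1, 14.4 and 13.9 CPM against 18.5, 17.8 and 17.7 in WT (-0.32, SE 0.08, adjusted P = 0.023, edgeR). It no longer passed without any 1 of KO DMSO replicates 1 to 3 or WT DMSO replicates 1 and 2, with adjusted P values up to 0.14. TFAP2A was lower in all 3 KO libraries (-0.16, SE 0.05) at an adjusted P value of 0.11 with edgeR and 0.029 with DESeq2. GATA3 differed by -0.02 (95% interval -0.11 to 0.08) and FOXA1 by 0.10 (95% interval 0.01 to 0.20, adjusted P = 0.35).

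The response to niraparib differed between genotypes for 6 of the 9 factors at an adjusted P value below 0.05 (22.9% of all genes), of which 3 were called (8.88% of all genes). This test asks whether the niraparib change in PARP1 KO cells minus that in WT cells differs from 0. It gave 0.71 for GATA3 (SE 0.07, adjusted P = 5.5e-10, edgeR), 0.67 for TFAP2A (SE 0.07, adjusted P = 2.0e-09), 0.53 for SPDEF (SE 0.08, adjusted P = 7.2e-06) and 0.30 for FOXA1 (SE 0.07, adjusted P = 0.0011). The difference was negative for ELF3 (-0.64, SE 0.20, adjusted P = 0.034) and TFAP2C (-0.34, SE 0.10, adjusted P = 0.015), the factors that were higher with niraparib in WT cells. The ELF3 difference did not hold without each library: its adjusted P value was between 0.051 and 0.076 when WT niraparib replicate 2 or 3, WT DMSO replicate 2 or 3, or KO niraparib replicate 1 or 2 was left out. Without KO DMSO replicate 1 it was -0.46 and under 1.5-fold. The TFAP2C difference was lost without KO DMSO replicate 1 (-0.22, adjusted P = 0.058) or WT niraparib replicate 2 (-0.32, adjusted P = 0.057). GRHL2 (-0.15, 95% interval -0.27 to -0.02, adjusted P = 0.10) and TBX3 (0.02, 95% interval -0.19 to 0.22, adjusted P = 0.95) did not pass. Genotype and whatever else separates the WT line from the KO line cannot be told apart with 1 line of each.

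For olaparib the same test called 0 factors with edgeR and DESeq2 (0.657% of all genes) and 2 passed, by unadjusted and by adjusted P value (2.27% of all genes). These were GATA3 at 0.32 (SE 0.07, adjusted P = 0.0066, edgeR) and TFAP2A at 0.33 (SE 0.07, adjusted P = 0.0049), so that both had a lower log2 change with olaparib in WT than in PARP1 KO cells. The difference was 0.12 for FOXA1 (95% interval -0.01 to 0.26, adjusted P = 0.39) and -0.28 for ELF3 (95% interval -0.67 to 0.11, adjusted P = 0.54). The ELF3 value ran from -0.41 without WT DMSO replicate 1 to -0.10 without KO DMSO replicate 1, and it was also nearer to 0 without WT DMSO replicate 3.

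Antisense RNAs are annotated near 4 of the factors. Of the 4 listed at first, 3 were tested, and niraparib in WT cells called 2 of them, GATA3-AS1 and TFAP2A-AS1, where 13.8% of all genes were called. GATA3-AS1 (ENSG00000197308, chromosome 10 from 8050450 to 8053484, minus strand) starts 156 bases from an upstream GATA3 start and runs away from it, within the second GATA3 sequence above. It had 70.1, 60.5 and 64.2 CPM with DMSO, 31.2, 31.4 and 34.5 with niraparib and 37.3, 38.9 and 39.7 with olaparib in WT cells. All libraries with an inhibitor were below all DMSO libraries, by -1.0 (SE 0.06, adjusted P = 2.1e-11, edgeR) with niraparib and -0.74 (SE 0.06, adjusted P = 2.3e-08) with olaparib. In PARP1 KO cells GATA3-AS1 had 58.0, 61.3 and 64.2 CPM with DMSO, 72.7, 70.4 and 82.4 with niraparib and 48.9, 54.8 and 61.7 with olaparib. The niraparib libraries were all higher than DMSO there without passing (0.30, SE 0.08, adjusted P = 0.18), while GATA3 itself was level. The genotype difference of GATA3-AS1 was 1.30 for niraparib (SE 0.10, adjusted P = 5.1e-11) and 0.60 for olaparib (SE 0.10, adjusted P = 0.0012).

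ELF3-AS1 (ENSG00000234678, chromosome 1 from 201995696 to 202010463, minus strand) was added after its values were seen. Its start lies 233 bases from a RefSeq start of ELF3, and transcripts from these starts run apart. The Ensembl genes that were counted overlap on opposite strands, since ELF3 begins at 202007945. In WT cells it had 1.73, 2.06 and 2.24 CPM with DMSO, 5.30, 8.05 and 7.67 with niraparib and 1.63, 2.08 and 0.984 with olaparib. Only the niraparib libraries stood out, at 1.80 (SE 0.21, adjusted P = 8.7e-07, edgeR) against DMSO and 2.15 (SE 0.21, adjusted P = 2.5e-07) against olaparib. ELF3 mRNA, in contrast, was higher with both drugs. In PARP1 KO cells ELF3-AS1 stayed between 1.46 and 2.96 CPM in all 9 libraries, and the genotype difference for niraparib was -1.68 (SE 0.29, adjusted P = 3.4e-05).

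TFAP2A-AS1 (ENSG00000229950, chromosome 6 from 10409340 to 10416446, plus strand) was near 1 CPM. With 54, 59 and 49 counts with DMSO and 12, 57 and 19 with niraparib in WT cells, it was lower by -1.08 (SE 0.33, adjusted P = 0.011, edgeR), and this was lost without WT niraparib replicate 1 or 3 (adjusted P = 0.064 and 0.057). Leaving out 1 library at a time moved this change between -1.71 and -0.842. Its genotype difference for niraparib was 1.72 (SE 0.41, adjusted P = 0.0014). TFAP2A-AS2 (16 to 56 counts a library) passed in none of the 9 comparisons, and TBX3-AS1 had at most 3 counts. The libraries were counted by strand, but how completely strands were kept apart was not measured. By the Ensembl coordinates, TFAP2A-AS1 and TFAP2A-AS2 lie within the far more abundant TFAP2A, and GATA3-AS1 lies within GATA3. In WT cells with DMSO, GATA3 averaged 1105 CPM and GATA3-AS1 64.9. ELF3-AS1 overlaps ELF3.

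**Figure D3:**
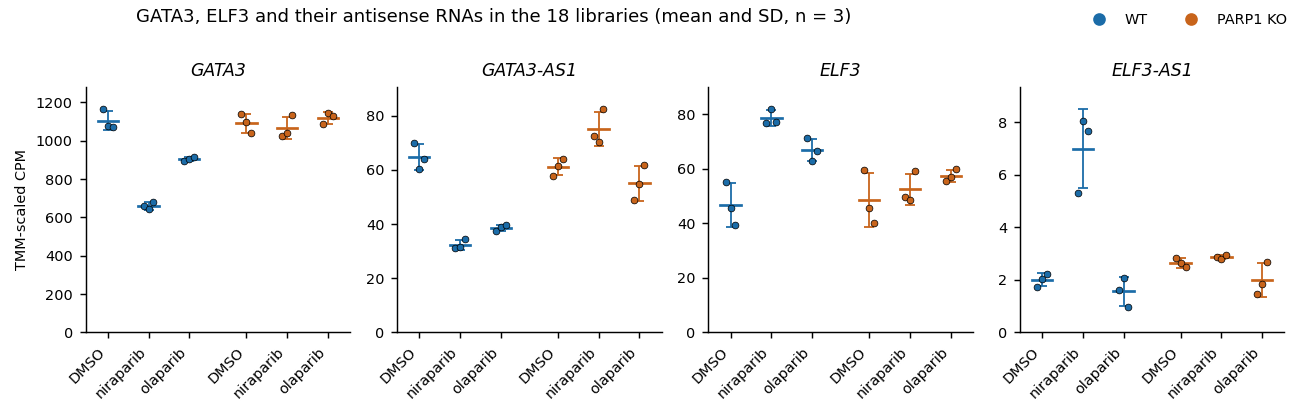
TMM-scaled CPM (y axis, from 0) of GATA3, GATA3-AS1, ELF3 and ELF3-AS1 in the 6 groups (x axis), with points for libraries and the mean and SD of 3. GATA3-AS1 lies below its DMSO libraries with both inhibitors in WT cells, whereas ELF3-AS1 stands apart only in the WT niraparib libraries (5.30 to 8.05 CPM).

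Genes around these factors were read from lists. Among 23 relatives of the same families, of which 18 were tested in WT cells, niraparib raised 4 and lowered 0 to a call, where 13.8% of all genes were called (1819 higher and 1283 lower of 22446). They were TFCP2L1, a grainyhead relative (1.07, SE 0.15, adjusted P = 4.3e-06, edgeR), the T-box repressor TBX2 (0.85, SE 0.09, adjusted P = 2.0e-07), GATA6 (0.74, SE 0.11, adjusted P = 1.4e-05) and GRHL3 (0.62, SE 0.09, adjusted P = 6.8e-06). By adjusted P value alone 10 relatives were higher and 1 was lower, against 38% of all genes. The median change of the relatives was 0.31, beside -0.02 for all genes. The single one lower, ELF5, the ETS factor of alveolar progenitors (named after its values were seen), had 139 to 148 CPM with DMSO and 93.2 to 104 with niraparib (-0.53, SE 0.05, adjusted P = 2.9e-08). With olaparib TBX2 alone of the 18 was called (0.81, SE 0.10, adjusted P = 2.8e-06; 4.04% of all genes), at 8.002 to 8.85 CPM with DMSO, 13.9 to 16.4 with niraparib and 13.1 to 16.1 with olaparib.

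Of 13 cofactors, CITED2, a co-activator of AP-2 factors, fell with niraparib from 279 to 311 CPM down to 169 to 182 (-0.76, SE 0.05, adjusted P = 8.3e-11, edgeR). ZFPM1 (FOG1), a partner of GATA factors, rose from 12.2 to 12.8 CPM up to 18.8 to 21.8 (0.67, SE 0.08, adjusted P = 1.0e-06). The other 11 were not called, so that the share called was near the 13.8% of all genes, and the list had a median change of 0.15. Olaparib called 0 cofactors with edgeR (4.04% of all genes), with 5 at an unadjusted P value below 0.05 (6783 of all 22446 genes).

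Of 14 other luminal factors niraparib lowered 2 and raised 2 to a call, with 7 lower and 3 higher by adjusted P value, where all genes gave 13.8% and 38%. The progesterone receptor PGR had 1320 to 1516 CPM with DMSO, 722 to 776 with niraparib and 858 to 943 with olaparib, at -0.89 (SE 0.06, adjusted P = 4.8e-11, edgeR) and -0.62 (SE 0.06, adjusted P = 1.1e-07) in the same order. SOX9, a progenitor factor, was at -0.63 with niraparib (SE 0.06, adjusted P = 3.0e-08), but under 1.5-fold when scaled by total counts alone (-0.54) or without WT DMSO replicate 1 (-0.58), and 0.20 with olaparib (SE 0.06, adjusted P = 0.020). KLF4 (1.14, SE 0.10, adjusted P = 8.4e-09) and KLF5 (0.67, SE 0.15, adjusted P = 9.9e-04), Krüppel-like factors of epithelial differentiation, rose with niraparib and also with olaparib (0.73 and 0.66, adjusted P = 2.9e-05 and 0.0034). KLF5 was under 1.5-fold without WT DMSO replicate 2 with either drug (0.57 and 0.56), and PGR with olaparib without WT DMSO replicate 1 (-0.56) or WT olaparib replicate 1. The list's median was -0.22 with niraparib and 0.02 with olaparib.

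Of 19 luminal products, 18 were tested, and niraparib lowered 5 and raised 0 to a call, with 12 lower and 1 higher by adjusted P value and a median of -0.36. All genes gave 13.8% called, 38% by adjusted P value and a median of -0.02. The secreted folding enzyme AGR2 had 678 to 794 CPM with DMSO and 351 to 445 with niraparib (-0.88, SE 0.08, adjusted P = 2.3e-06, edgeR). The receptor ERBB3 (-0.86, SE 0.06, adjusted P = 5.6e-11), the mucin MUC1 (-0.77, SE 0.06, adjusted P = 4.6e-10) and AGR3 (-0.63, SE 0.07, adjusted P = 1.1e-07) were the next, AGR3 falling under 1.5-fold without WT niraparib replicate 2 (-0.56) or WT DMSO replicate 3. TFF3, the fifth, was at -0.59 (SE 0.09, adjusted P = 4.0e-04), close to 1.5-fold, and is named after its values were seen. Scaled by total counts alone, 3 of them were called and the median was -0.27. Olaparib called 0 of these products with edgeR (4.04% of all genes, with 10 products at an unadjusted P value below 0.05), with 7 lower and 0 higher by adjusted P value, beside 6783 of all 22446 genes by unadjusted and 19% by adjusted P value.

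Of 14 junction and splicing genes of epithelia, 1 was called with niraparib, below the 13.8% of all genes: ESRP2, an epithelial splicing regulator, had 154 to 174 CPM with DMSO and 88.2 to 90.7 with niraparib (-0.86, SE 0.05, adjusted P = 1.2e-11, edgeR). By adjusted P value 7 of the 14 were lower and 2 higher, against 38% of all genes, and the median was -0.15. The tight junction protein CLDN4 (-0.49, SE 0.06, adjusted P = 2.9e-07) and the desmosome protein DSP (-0.45, SE 0.05, adjusted P = 3.1e-07) were among the lower ones, named after their values were seen. The cadherin CDH1 had -0.14 (SE 0.06, adjusted P = 0.059) and EPCAM -0.05 (SE 0.06, adjusted P = 0.58). The summed level of the 8 basal markers was 43.7 to 46.0 CPM with DMSO, 53.2 to 55.0 with niraparib and 49.8 to 52.2 with olaparib in WT cells, and ACTA2 made up most of it. Of the 6 tested, 3 were called higher with niraparib, where 13.8% of all genes were called in either direction. KRT17 had 0.0333, 0.175 and 0.150 CPM with DMSO and 2.08, 2.94 and 2.62 with niraparib, and TP63 had 1.40, 1.36 and 1.45 against 2.32, 2.36 and 2.54. CNN1, the third, overlapped between groups at 0.0595 to 0.613 CPM with niraparib, and KRT17 and CNN1 averaged under 1 CPM over the 9 WT libraries and are named after their values were seen. The defining basal keratins KRT5 and KRT14 did not exceed 0.0997 and 0.150 CPM. Of 14 mesenchymal markers 12 were tested and 0 called with niraparib, with 2 at an unadjusted P value below 0.05 (edgeR). With olaparib 1 of 12 was called (4.04% of all genes), the repressor SNAI1, at 7.13, 5.39 and 5.91 CPM against 3.63, 2.75 and 2.37 with DMSO and 2.98, 2.36 and 3.01 with niraparib. Its change was 1.09 against DMSO (SE 0.17, adjusted P = 8.3e-05), and niraparib differed from olaparib by -1.16 (SE 0.17, adjusted P = 1.3e-05). The 14 mesenchymal markers summed to 147 to 170 CPM with DMSO and 167 to 200 with niraparib in WT cells. VIM stayed under 0.708 CPM in all 18 libraries, so other genes of the list made up nearly all of this sum. The part of these markers in the changes of the 9 factors was not tested.

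In PARP1 KO cells niraparib called 0 genes of any of these lists by edgeR, where only 0.0136% of all genes were called. By unadjusted P value below 0.05 there were 1 relative, 0 cofactors, 3 other luminal factors, 6 luminal products, 1 junction gene, 0 basal markers and 1 mesenchymal marker, beside 2014 of all 22037 genes. Medians were between -0.10 for the other luminal factors and 0.18 for the mesenchymal markers. Of the 4 antisense RNAs listed at first, 3 were tested in PARP1 KO cells. All 3 were higher with niraparib than with DMSO, 2 at an unadjusted P value below 0.05. Between niraparib and olaparib all 3 had such a P value (4877 of all 22037 genes). There 1 passed by adjusted P value, beside 10% of all genes. Olaparib called 1 relative in PARP1 KO cells (GATA4, lower; 0.803% of all genes) and none of the genes of the other lists. By adjusted P value (8.29% of all genes) 1 luminal product was higher and 6 were lower, of 18 tested. Of 14 other luminal factors 3 were higher and 3 lower. Relatives had 2 higher and 2 lower, cofactors 1 and 1, junction genes 2 and 0, basal markers 0 and 0, and mesenchymal markers 1 and 0.

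**Figure D4:**
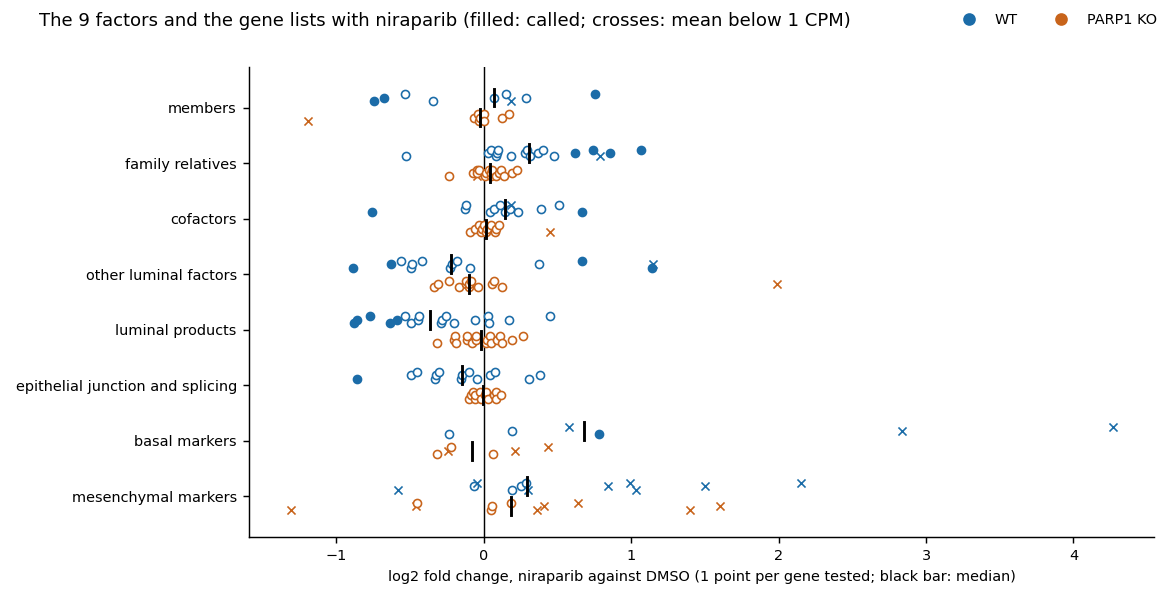
Each point is 1 tested gene, placed by its log2 fold change with niraparib against DMSO (x axis) in WT (blue) and PARP1 KO cells (orange), in rows by list; filled points were called, crosses averaged under 1 CPM (KRT17 and CNN1, also called, among them) and black bars are medians. In WT cells the luminal products have 5 called genes, all lower, and the relatives 4, all higher, whereas 0 PARP1 KO points are called.

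For each factor but TFAP2B, which was below 1 CPM, the gene with the most similar pattern was taken as the one with the highest Pearson r of log2 CPM over the 18 libraries, among 13525 genes that averaged 1 CPM or more. It was FASN for GATA3 (r = 0.989), MFSD3 for FOXA1 (0.977), SLC35B2 for SPDEF (0.982), ENSG00000262160 for TFAP2A (0.985), OBSL1 for TFAP2C (0.911), MAP3K10 for ELF3 (0.955), ZNF37A for GRHL2 (0.929) and MICAL3 for TBX3 (0.946). Among the factors themselves the closest pair was GATA3 and TFAP2A, with r = 0.958 over 18 libraries, 0.990 over the 9 WT and 0.629 over the 9 PARP1 KO libraries. FOXA1 and SPDEF had r = 0.877 in WT and 0.821 in PARP1 KO libraries. These values are descriptions: the libraries of 1 treatment share a condition, and in WT cells most of the range is the difference between treatments.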

How the data were processed

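Polyadenylated RNA of T47D cells was sequenced in 18 libraries (6 groups of 3, from the labels). Per the study's methods and the labels, the authors trimmed reads with Trimmomatic, aligned them to GRCh38 (hg38) with STAR, marked duplicates with Picard and deposited raw counts per gene from featureCounts (exons of Ensembl release 96, reverse strand, primary alignments). The names of the deposited files call them deduplicated, but whether marked duplicates were dropped before counting is not stated, and the labels and the methods differ on RNA input and medium.

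From the deposited counts, edgeR 4.0.16 in R 4.3.3 (TMM size factors, robust quasi-likelihood F test) was fitted over genes with more than 10 counts in total, in the 9 WT libraries, the 9 PARP1 KO libraries, and all 18 for genotype and interaction tests. P values were adjusted over all genes tested. SE is the log2 fold change over the root of F. The study states its cut both as 1.5 on the log2 scale and as 1.5-fold; the first is an alternative here, as are DESeq2 1.42.0, other size factors and filters, and leaving out each library. RPKM uses the union of exons.

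The factors and gene lists were chosen with earlier results of these data known. Named from each list were called genes averaging 1 CPM or more, at most 4 by size, and for each factor the 1 gene with the highest Pearson r (log2 of CPM plus 0.5). The fits were tested on simulated data. Intervals called 95% are approximate: they were taken from the SE with the normal distribution and are narrower than the F test implies. An interval can therefore exclude no change although the unadjusted P value of the same test is above 0.05.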

Additional observations from a re-analysis of the deposited data

Results flagged for a closer look

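The results below differed between WT and PARP1 KO cells in a test of the difference itself (edgeR interaction term, adjusted P value below 0.05, all genes tested), given as the log2 change in PARP1 KO minus that in WT. For niraparib the factors concerned were GATA3 (0.71), TFAP2A (0.67), SPDEF (0.53), FOXA1 (0.30), TFAP2C (-0.34) and ELF3 (-0.64), and the antisense RNAs were GATA3-AS1 (1.30), TFAP2A-AS1 (1.72) and ELF3-AS1 (-1.68). For olaparib they were GATA3 (0.32), TFAP2A (0.33) and GATA3-AS1 (0.60).

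Among the named genes of the lists, the niraparib difference was positive, for genes lower with niraparib in WT cells, in CITED2 (0.72), PGR (0.71), ERBB3 (0.80), MUC1 (0.78), AGR2 (0.77) and ESRP2 (0.79). It was negative, for genes higher with niraparib in WT cells, in TFCP2L1 (-0.85), GATA6 (-0.82), TBX2 (-0.72), ZFPM1 (-0.63), KLF4 (-1.08), KLF5 (-0.99) and TP63 (-1.11). Each of these genes was named for its change in WT cells, so the sign of its difference partly follows from that choice.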

How the results depend on the processing

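Judged by the adjusted P value alone, the factors counted were 6 with niraparib in WT, 6 with olaparib in WT, 5 between the drugs in WT, 1 with olaparib in PARP1 KO, 1 for PARP1 KO against WT, 6 for the genotype difference with niraparib and 2 with olaparib. With a cut of 1.5 on the log2 scale in place of 1.5-fold (the study states both), 0 factors were called with niraparib in WT and 0 for its genotype difference. Leaving out 1 library at a time gave 3 to 4 called factors with niraparib in WT, 0 to 1 with olaparib in WT, 2 to 3 for the niraparib genotype difference, and 0 in the other 6 comparisons.

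Direction turned only for changes that had not passed by adjusted P value. The largest of these were 0.12 for ELF3 with niraparib in PARP1 KO cells and 0.11 for TFAP2C in PARP1 KO against WT. With niraparib in PARP1 KO cells TFAP2A was at 0.000176 with RLE, 0.0131 with upper quartile and 0.0127 with total-count size factors, 0.00246 with filterByExpr and 0.000203 with DESeq2, and SPDEF at -0.00901 with no filter and -0.00451 with all 18 libraries in the fit. With total-count scaling the genotype difference of TBX3 with niraparib was -0.0595. With 1 library left out, changes with niraparib in PARP1 KO cells ranged from -0.075 to 0.00478 for GATA3, -0.0294 to 0.0272 for SPDEF, -0.0367 to 0.0281 for TFAP2A, -0.141 to 0.0729 for TFAP2C and -0.00439 to 0.295 for ELF3. For PARP1 KO against WT they ranged from -0.0477 to 0.0222 for GATA3, -0.0117 to 0.0699 for SPDEF, -0.00452 to 0.208 for TFAP2C and -0.121 to 0.188 for ELF3. The genotype difference ranged from -0.0374 to 0.0774 for TBX3 with niraparib and -0.000142 to 0.0815 for SPDEF with olaparib. The cause was not tested.

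Over the single-gene results, 955 values under other settings kept direction and side of the threshold, 12 newly passed and 8 turned. With 1 library left out these numbers were 1466, 5 and 22, and 19 were lost.

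Replicate numbers did not pair the libraries: same-numbered libraries had correlations of deviations from -0.56 to 0.387 in WT (3 of 9 pairs above 0.1) and -0.523 to 0.578 in PARP1 KO (2 of 9). With the replicate number as a block, 3 factors were called with niraparib in WT, 3 for its genotype difference and 0 in the other comparisons, and ELF3 passed between the drugs in WT (0.235, adjusted P = 0.042, edgeR).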
